A study of Homo sapiens with 9 samples.

Results

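LX2 cells that received an siRNA against YAP (siYAP) were compared with LX2 cells that received a non-targeting siRNA (siNT). The libraries were chosen by their labels, 3 for each siRNA, which makes 6 of the 9 libraries of the study, and the other 3 came from cells given an siRNA against TAZ (siTAZ). LX2 is an established line of human hepatic stellate cells, the perisinusoidal liver cells that become scar-forming myofibroblasts. All cells were grown in DMEM with 10% serum, took up 20 nM siRNA with Lipofectamine RNAiMAX, had fresh medium every 3 days and were harvested at day 7. The sequences of the siRNAs, and whether each was a single duplex or a pool, are not given in the sources used here, so the effects of losing YAP and of the reagent itself cannot be told apart. The labels call the libraries replicates without saying whether each was a separate culture, and the p-values therefore measure only the spread between these libraries.

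YAP (gene symbol YAP1) is a transcriptional coactivator held in the cytoplasm by phosphorylation through the Hippo kinases and released into the nucleus by mechanical tension, spreading and growth signals. It has no DNA-binding domain and reaches genes mainly through the TEAD factors, at which it promotes genes of proliferation, adhesion and the cytoskeleton. In stellate cells it is known as a driver of the change from the quiescent, vitamin A-storing state to the myofibroblast.

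YAP1 stood at 212, 212 and 205 CPM (counts scaled to library depth, here with TMM factors) after siNT and 28.04, 25.7 and 25.2 after siYAP, and every siYAP library lay far below every siNT library. Read counts in genes ranged from 16498508 to 18752805 per library over the study. Of the 6 libraries compared here, those of siYAP had more reads outside annotated genes (6.01 to 7.49% against 4.73 to 5.13%), fewer mitochondrially encoded reads (0.730 to 1.07% against 1.27 to 1.49%) and more genes detected (20924 to 21836 against 20103 to 20178), and siYAP replicate 1 was at the high end of each. Whether these differences contribute to the results was not tested. Stellate lineage markers were only partly present: LRAT had 0 counts in all 6 libraries, and GFAP, TCF21 and DES stayed under 1 CPM in each, while the mesenchymal genes VIM, PDGFRB and COL1A1 were expressed. Markers of other liver cells were in part absent and in part expressed, and their summed levels differed between the groups. For hepatocytes 10 of 11 markers, among them ALB and HNF4A, were under 1 CPM in every library, and the summed level of the 11 went from between 2.07 and 2.49 CPM to between 13.1 and 16.2, almost all of it SERPINA1. Of 14 macrophage and leukocyte markers 8 were under 1 CPM, with SPI1 and TYROBP at 0 counts, and their sum went from between 35.3 and 39.4 to between 131 and 136 CPM, mostly CD68, a lysosomal protein. Of 12 cholangiocyte and epithelial markers 7 were under 1 CPM, EPCAM and CDH1 among them, and the sum went from between 673 and 684 to between 235 and 247 CPM, mostly KRT8 and KRT18. Of 12 endothelial markers 6 were under 1 CPM, with LYVE1 and CLEC4G at 0 counts, and the sum went from between 56.3 and 60.7 to between 118 and 132.5 CPM, mostly TIE1. Of 10 portal fibroblast and mesothelial markers 4 were under 1 CPM, and the sum went from between 367 and 394.5 to between 248 and 269.5 CPM. Of the 6 tested, 3 fell and 1 rose. Among the 6 tested endothelial markers 3 rose and 3 fell, and among the 6 tested macrophage and leukocyte markers 3 rose and 1 fell. The part of the markers of other liver cells in the results was not tested.

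YAP knockdown moved most of the expressed transcriptome. Of 15560 genes tested, 10448 (67.1%) passed edgeR's quasi-likelihood test at a Benjamini-Hochberg adjusted p under 0.05, 5254 of them higher (33.8%) and 5194 lower (33.4%). A change of more than 2-fold was reached by 1681 higher (10.8%) and 1396 lower genes (8.97%), and in 10965 genes (70.5%) the siYAP and siNT libraries did not overlap, with siYAP above in 35.8% and below in 34.7%. These shares are the background for every list below, because roughly 1 tested gene in 3 was called in each direction. The large changes leaned upward, since beyond 8-fold there were 273 higher and 101 lower genes, and beyond 16-fold 157 and 43. Small changes made up much of the rest, with 4950 of the called genes (47.4%) under 1.5-fold. Every verb of change below refers to a gene or member that passed this test. Of 285 genes named, 273 passed, all with groups that did not overlap, and the largest adjusted p among them was 0.0031. Fold changes are on the log2 scale with their standard error (SE), and levels are means in CPM ± SD over 3 libraries. A bulk level cannot tell fewer cells that express a gene from less RNA per cell.

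**Figure D1:**
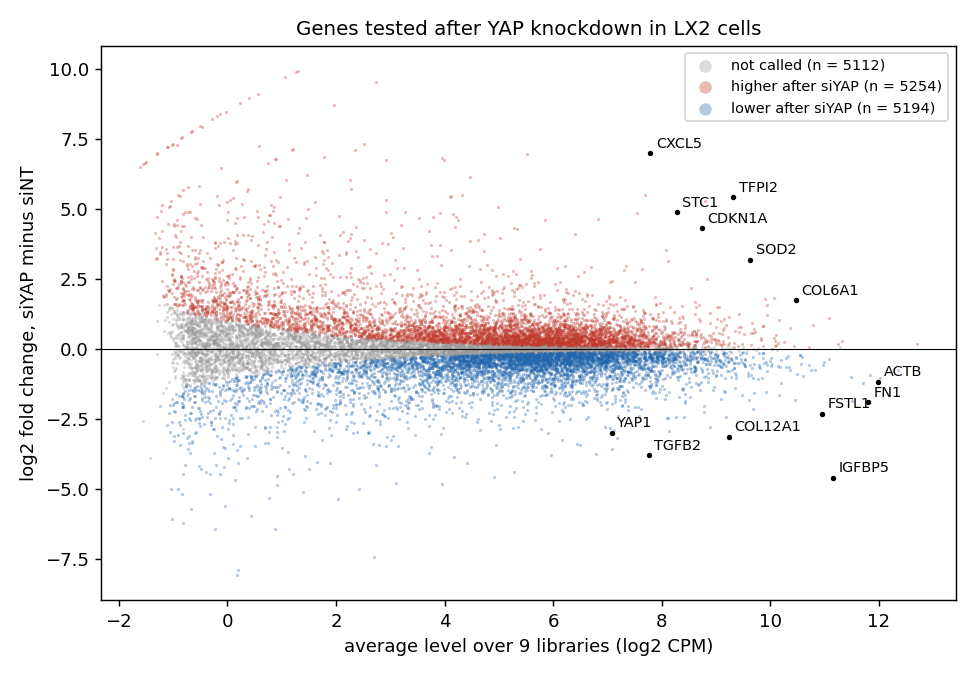
Each point is 1 of 15560 tested genes, with its average level over the 9 libraries (log2 CPM) on the horizontal axis and its log2 fold change after siYAP on the vertical axis; red and blue mark the 5254 higher and 5194 lower calls, grey the genes not called. Among the labelled genes the largest rise is that of CXCL5 and the largest fall that of IGFBP5. IGFBP5, FSTL1, FN1 and ACTB sit among the most abundant transcripts. For genes with 0 counts in every siNT library, among the red points at the upper left, the fitted fold depends on the prior count. The same holds for PTGIS (-7.91), which has 0 counts in every siYAP library.

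Canonical YAP targets fell with unequal depth. Of 22 genes known as YAP and TEAD targets, 15 fell and 6 rose, with a median log2 fold change of -1.02 against 0.02 over all genes tested. CCN2, a secreted matricellular protein that is the most used YAP readout, was measured at 374, 382 and 399 CPM after siNT and 74.6, 69.4 and 65.3 after siYAP. Its relative CCN1 stood at 940.5, 933 and 999 CPM after siNT and 297, 310.5 and 306 after siYAP. Neither gene overlapped between groups, and both fell (-2.46 ± 0.05 and -1.65 ± 0.03; adjusted p = 6.77e-32 and 3.71e-48, edgeR). The deepest fall was that of TGFB2, a ligand that activates stellate cells, from 365 ± 10.9 to 26.3 ± 2.11 CPM, although 26.6% of its exon length is shared with another annotated gene. The muscle ankyrin protein ANKRD1 (-2.44), the coagulation trigger F3 (-1.84), the receptor kinase AXL (-1.56) and CRIM1 (-1.39) followed. Members that rose were the ecto-nucleotidase NT5E (1.09), the stress gene GADD45A (0.73), FJX1 (0.66), the kinases NUAK2 (0.46) and LATS2 (0.43) and the guanine exchange factor DOCK5 (0.18). The DOCK5 call was lost without siYAP replicate 1, where its log2 fold change was 0.09 (edgeR, adjusted p = 0.0884). The phosphatase PTPN14 was not called, at 192 and 201 CPM.

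The TEAD core motif was present upstream of some of these targets. RefSeq promoter sequence (GRCh38.p14), taken over the 250 bases before the start, was at hand for 16 of the 22, and the word GGAATG, searched on both strands, occurred in 6 of them (37.5%) against 11.9% of all 27305 promoters, 9.50% of those of tested genes, 10.1% of those of genes called lower and 8.54% of those of genes called higher. The 6 are CCN2, ANKRD1, TGFB2 and FOXF2, which fell, NUAK2, which rose, and PTPN14, which was not called. FOXF2, at a low level, changed by -1.85 on the log2 scale, and by -2.82 without siYAP replicate 3. A match of letters is a description and does not show binding. The windows of 60 bases around the match nearest the start are shown for 3 targets that fell, on the strand of each gene, with every copy of the word or its reverse complement in capitals. They are CCN2 (chr6:131951435-131951494, minus strand), ANKRD1 (chr10:90921183-90921242, minus strand) and TGFB2 (chr1:218345124-218345183, plus strand).
CCN2: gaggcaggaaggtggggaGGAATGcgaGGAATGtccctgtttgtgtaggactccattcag
ANKRD1: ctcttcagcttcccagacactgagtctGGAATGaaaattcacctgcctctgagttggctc
TGFB2: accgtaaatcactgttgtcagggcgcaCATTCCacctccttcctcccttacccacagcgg
CCN2 holds 3 copies in its 250 bases, ANKRD1 holds 2 and TGFB2 holds 1.

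Regulators of the Hippo pathway, both those that restrain YAP and those that favour it, moved in both directions. Of 23 kinases, adaptors and junctional regulators 15 fell and 5 rose. The LIM adaptor AJUBA, which restrains the LATS kinases, went from 267 ± 13.7 to 60.99 ± 2.40 CPM. The TEAD cofactor VGLL3 fell (-2.05 ± 0.04), as did the LATS activator MOB1A (-1.57) and the YAP-binding angiomotins AMOT (-1.57) and AMOTL2 (-1.18). Both the giant cadherin FAT1 (1.54) and VGLL4 (1.54), which competes with YAP for TEAD, rose. Among the DNA-binding partners themselves TEAD2 (-1.16), TEAD1 (-0.54) and TEAD4 (-0.29) fell and TEAD3 rose (0.43). WWTR1, which encodes the paralog TAZ, was slightly higher (0.29 ± 0.06).

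The contractile and actin machinery fell almost as a block. Of 15 tested smooth muscle genes 12 fell and 2 rose (median -1.20), and of 28 actin regulators and myosins 25 fell and 1 rose (median -0.76). The summed level of the contractile list was 6812 to 7028 CPM after siNT and 2623 to 2762 after siYAP. TAGLN, which cross-links actin in contractile cells, measured 567, 549 and 568 CPM after siNT and 85.4, 77.05 and 79.6 after siYAP. The actin-binding SYNPO2 fell from 33.3 ± 2.25 to 6.68 ± 0.698 CPM, and calponin CNN1 fell from 56.3 ± 0.91 to 17.96 ± 2.39 CPM. MYOCD, the coactivator that drives smooth muscle genes through SRF, fell as well (-1.20 ± 0.10).

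Housekeeping actins belonged to the same set. ACTB stood at 5169, 5081 and 5322 CPM after siNT and 2259.9, 2325 and 2343 after siYAP, and ACTG1 fell in parallel (-1.17 ± 0.03 and -1.23 ± 0.03). Both actins, the filamin FLNA (-0.73) and the non-muscle myosin MYH9 (-0.99) were among the 10 genes that lost the most CPM. The actin crosslinker ACTN4 (-2.13) and the myosin MYH10 (-1.60) fell further. SRF and its cofactor MRTFA were not called, at 95.99 and 93.4 CPM and 56.1 and 52.1 CPM, and the formin DIAPH1 was the 1 member of its list that rose (0.20). ACTA2, the activation marker, went against the block with 23.5, 20.8 and 23.1 CPM after siNT and 37.1, 32.3 and 36.5 after siYAP; 30.1% of its exon length is shared with other annotated genes and its count is uncertain.

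**Figure D2:**
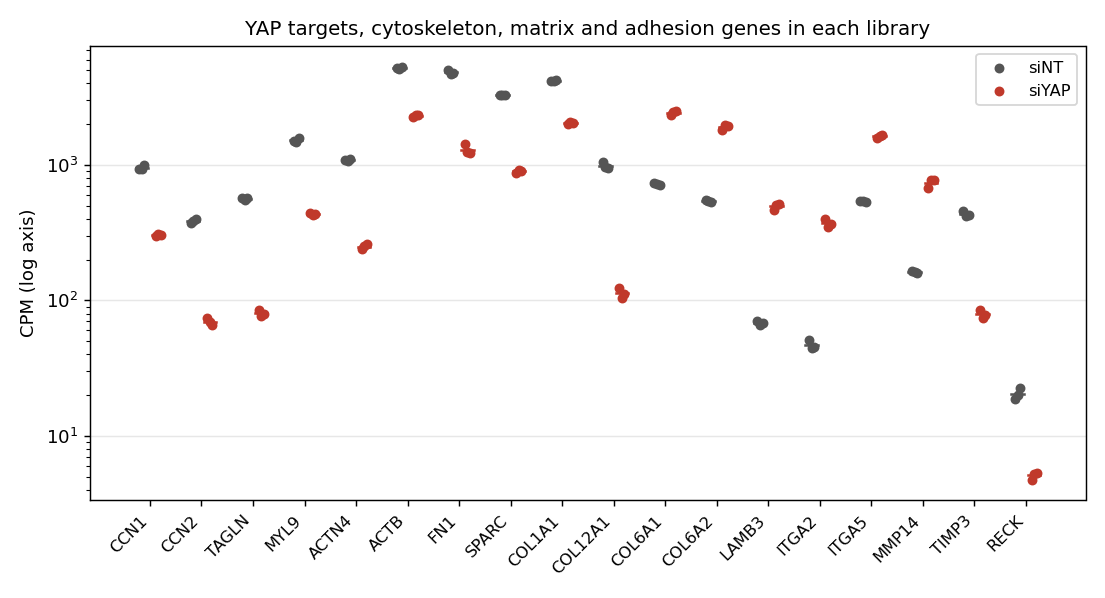
Points show CPM in each of 3 siNT (grey) and 3 siYAP (red) libraries on a log axis, with a line at each mean. Libraries of a group lie close together, CCN1 to COL1A1 and COL12A1 are lower after siYAP, and the collagen VI chains, LAMB3, the integrins and MMP14 are higher while TIMP3 and RECK are lower.

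Matrix genes moved in both directions. Among 29 basement membrane and network collagen genes 15 rose and 11 fell. Fibrillar collagens and their maturation enzymes formed 1 list of 26 tested genes, of which 11 rose and 12 fell. COL6A1, a chain of the beaded-filament collagen VI, stood at 729.8, 728 and 711 CPM after siNT and 2322, 2478 and 2502 after siYAP. COL6A2 rose by a like amount (1.75 ± 0.03 and 1.82 ± 0.03), whereas the third classical chain, COL6A3, fell from 210.1 ± 10.9 to 110.4 ± 1.34 CPM. COL12A1, which coats collagen I fibrils, dropped from 989 ± 48.6 to 113 ± 10.4 CPM. LAMB3, a laminin chain of epithelial basement membranes, rose from 68.1 ± 2.005 to 494 ± 27.4 CPM.

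Collagen modification genes of the same list moved in both directions. The prolyl 4-hydroxylase subunits P4HA1 (1.04) and P4HA2 (1.69), the lysyl hydroxylase PLOD1 (0.71), the crosslinking oxidase LOX (0.46) and the proteinase BMP1 (0.42) rose. The LOX relatives LOXL4 (-3.45), LOXL2 (-0.54) and LOXL1 (-0.48) and the enhancer of procollagen cleavage PCOLCE (-0.90) fell. COL1A1 fell (-1.03 ± 0.02) and COL1A2 rose (1.07 ± 0.04). COL27A1, a minor fibrillar collagen of cartilage, rose most (1.92). PLOD2 was not called, at 425 and 425 CPM.

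Glycoproteins of the scar matrix fell more often than they rose. Of 24 tested members of the elastic fibre, proteoglycan and glycoprotein list 13 fell and 7 rose. FN1, fibronectin, stood at 5066, 4699 and 4766 CPM after siNT and 1425, 1249 and 1217 after siYAP. The fibulin-like EFEMP1 fell from 84.7 ± 4.21 to 20.5 ± 0.38 CPM and the thrombospondin THBS2 from 1059.9 ± 14.9 to 299 ± 13.6 CPM. Members that rose were few, such as the hyaluronan synthase HAS2 (1.54), the hyaluronan receptor CD44 (0.57) and the latent TGF-beta binding protein LTBP1 (0.92).

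Several matrix proteases rose while a pair of their membrane- or matrix-bound inhibitors fell. Of 16 metalloproteinase and TIMP genes 10 rose, 7 of them by over 2-fold, and 5 fell, all by over 2-fold. Metalloproteinases were also among the genes that fell. MMP14, which activates MMP2 at the cell surface, stood at 166, 163 and 158 CPM after siNT and 670.3, 774 and 772 after siYAP. The stromelysin MMP3 (6.14), the gelatinase MMP9 (3.21) and the collagenase MMP1 (3.14) rose further. TIMP3, the inhibitor that stays bound to matrix, fell from 435 ± 21.6 to 79.1 ± 5.52 CPM, and the membrane-anchored inhibitor RECK fell from 20.4 ± 1.92 to 5.11 ± 0.325 CPM, whereas the soluble TIMP1 rose (1.35). In the list of plasminogen system genes and clade B serpins 11 of 18 rose and 3 fell. TFPI2, a Kunitz inhibitor of plasmin, showed the largest CPM gain of all genes tested, with 44.9, 44.9 and 38.9 CPM after siNT and 1808, 1863 and 1839 after siYAP. The urokinase receptor PLAUR (1.89), the protease nexin SERPINE2 (1.86) and the intracellular serpins SERPINB2 (2.94) and SERPINB7 (4.29) rose.

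Integrin genes moved in both directions. Of 15 tested matrix-binding integrins 7 rose and 7 fell. ITGA2, a collagen receptor subunit, stood at 50.9, 44.6 and 45.4 CPM after siNT and 402, 347 and 366 after siYAP. The fibronectin receptor subunit ITGA5 rose (1.59), as did ITGA3 (0.83) and the collagen receptor subunit ITGA1 (1.47). ITGB4 (-1.30), ITGA6 (-1.13), ITGA7 (-0.996), the fibronectin and VCAM receptor subunit ITGA4 (-2.32) and the TGF-beta-activating ITGB8 (-2.63) fell.

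Secreted ligands and antagonists of the TGF-beta superfamily were rearranged. Of 27 tested ligands, receptors and antagonists 12 fell, 10 of them by over 2-fold, and 11 rose. FSTL1, a secreted modulator of BMP and TGF-beta signalling, was the most abundant member that fell, with 2911, 2901 and 2914 CPM after siNT and 596, 592 and 569 after siYAP. Myostatin, MSTN, fell from 41.4 ± 3.90 to 2.45 ± 0.336 CPM and the activin antagonist FSTL3 fell (-1.76). TGFB1 moved opposite to TGFB2 (0.99 ± 0.04 against -3.79 ± 0.05), and the co-receptor TGFBR3 (2.14) and the endothelial-type receptor ACVRL1 (2.26) rose. GREM1, an abundant BMP antagonist, was not called (-0.04, at 1171 and 1138 CPM). Among SMADs and target genes 11 of 21 fell and 7 rose. The BMP-responsive ID2 (-1.58) and the inhibitory SMAD6 (-1.57) were lowest, and the corepressor TGIF1 rose most (1.27).

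Growth factor genes moved in both directions. In the PDGF, FGF and VEGF list 13 of 27 fell and 11 rose. PDGFRB, the receptor for the main stellate cell mitogen, measured 117, 114 and 115 CPM after siNT and 40.4, 42.5 and 40.8 after siYAP, and its ligand PDGFB fell too (-2.08). FGF1 fell from 64.3 ± 2.10 to 12.8 ± 1.10 CPM. The hepatocyte mitogen HGF rose from 1.33 ± 0.352 to 12.97 ± 1.11 CPM, VEGFA rose (1.89) and so did the VEGF co-receptors NRP1 (1.32) and NRP2 (1.44). In the IGF list 8 of 15 fell and 5 rose. The binding protein IGFBP5, which binds matrix and IGFs, lost more CPM than any other gene, with 4448, 4209 and 4197 CPM after siNT and 182, 169.9 and 179 after siYAP. STC1, a secreted inhibitor of the IGFBP-cleaving protease PAPPA, rose from 28.8 ± 1.54 to 861 ± 40.05 CPM. Of 12 tested genes of the EGF family 6 rose and 4 fell: the ligands HBEGF (0.69), NRG1 (0.89) and AREG (1.73) rose, and the ligand EGF (-1.78) and the receptors EGFR (-0.52) and ERBB2 (-1.02) fell.

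Genes of inflammatory secretion rose. The 6 tested neutrophil-attracting CXC chemokines, which share an ELR motif ahead of the first cysteines and act on CXCR1 or CXCR2, all rose, each by more than 2-fold (median 4.88). CXCL5 stood at 4.95, 4.72 and 5.49 CPM after siNT and 665, 648 and 648 after siYAP. CXCL8 stood at 37.4, 29.7 and 30.9 CPM after siNT and 1351, 1285 and 1245 after siYAP, and CXCL1 at 18.9, 17.4 and 18.9 CPM after siNT and 576, 496 and 529 after siYAP. No siYAP library of these 3 overlapped an siNT library, and the siNT levels of CXCL5 were only a few CPM. CXCL6 (4.62 ± 0.13), CXCL2 (4.63 ± 0.13) and CXCL3 (4.90 ± 0.26) rose by similar amounts, CXCL3 from 0.0589, 0.978 and 1.02 CPM after siNT. CXCL1, CXCL2 and CXCL3 are close paralogs, and reads shared among them could be divided or dropped in counting.

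All of these genes lie in the chemokine cluster on chromosome 4, and all 6 carry an NF-kB-type word close to the start. The word GGNNTTTCC, in which N is any base, was searched on both strands of the 250 bases before the start and was found in 6 of 6, against 5.48% of all promoters and 5.83% of the promoters of tested genes. The windows are given on the strand of each gene with the word or its reverse complement in capitals. Their places are CXCL1 chr4:73869314-73869373 (plus strand), CXCL2 chr4:74099215-74099274 (minus), CXCL3 chr4:74038709-74038768 (minus), CXCL5 chr4:73998734-73998793 (minus), CXCL6 chr4:73836563-73836622 (plus) and CXCL8 chr4:73740452-73740511 (plus).
CXCL1: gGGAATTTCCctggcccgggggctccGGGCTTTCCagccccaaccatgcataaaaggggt
CXCL2: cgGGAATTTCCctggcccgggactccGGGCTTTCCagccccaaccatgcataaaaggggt
CXCL3: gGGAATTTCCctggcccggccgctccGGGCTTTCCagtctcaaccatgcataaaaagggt
CXCL5: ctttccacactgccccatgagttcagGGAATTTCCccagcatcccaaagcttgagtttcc
CXCL6: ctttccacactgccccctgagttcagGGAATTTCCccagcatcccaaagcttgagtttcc
CXCL8: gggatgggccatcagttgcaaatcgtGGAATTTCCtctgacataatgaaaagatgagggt
The match ends 44 bases before the start in CXCL1, CXCL2 and CXCL3 and 80 to 82 bases before it in CXCL5, CXCL6 and CXCL8. The windows of CXCL1, CXCL2 and CXCL3 are nearly alike, as are those of CXCL5 and CXCL6. The 6 matches are therefore not independent of one another. Over all genes called higher the word occurred in 6.21% of promoters, and over all genes called lower in 5.70%.

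Other chemokines mostly followed, with exceptions. Of 9 tested 6 rose and 2 fell, each by over 2-fold. Among those that rose were the monocyte attractant CCL2 (2.98), CCL7 (2.52) and the T cell attractant CCL5. CCL5 went from 1.05 ± 0.677 to 46.8 ± 1.96 CPM (5.48, and 6.13 without siNT replicate 1). CXCL12, the stromal ligand of CXCR4, stood at 340.2, 337 and 331 CPM after siNT and 125, 124 and 125 after siYAP and fell (-1.43 ± 0.04). CCL20, the ligand of CCR6, had 0 counts in each siNT library and 126, 134 and 111 in the siYAP libraries.

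Interleukins and colony-stimulating factors rose in 16 of 20 tested cases, 15 of them by over 2-fold. IL1B, a master inducer of other cytokines, stood at 59.3, 63.1 and 58.4 CPM after siNT and 715, 703 and 689 after siYAP. IL6 rose from 8.39 ± 1.45 to 67.8 ± 5.02 CPM, and the alarmin IL1A from 2.41 ± 0.226 to 49.5 ± 2.18 CPM. CSF2, the granulocyte-macrophage factor, rose from 2.01 ± 0.563 to 52.5 ± 3.21 CPM, CSF1, the macrophage factor, from 50.6 ± 3.75 to 265 ± 13.4 CPM, and LIF from 15.1 ± 1.87 to 67.7 ± 4.24 CPM. IL33, IL24 and CSF3 had between 0 and 6 counts in each siNT library and between 259 and 409 in each siYAP library, so the size of their rise is poorly determined. Receptors moved with the ligands: 19 of 22 rose and 1 fell, with IL6R (2.03), IL1RAP (1.54), TNFRSF1B (1.22) and IL1R1 (1.16) higher and OSMR (-0.69) lower. The signal-transducing chain IL6ST, already abundant, rose from 716 ± 25.8 to 1068 ± 19.9 CPM.

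**Figure D3:**
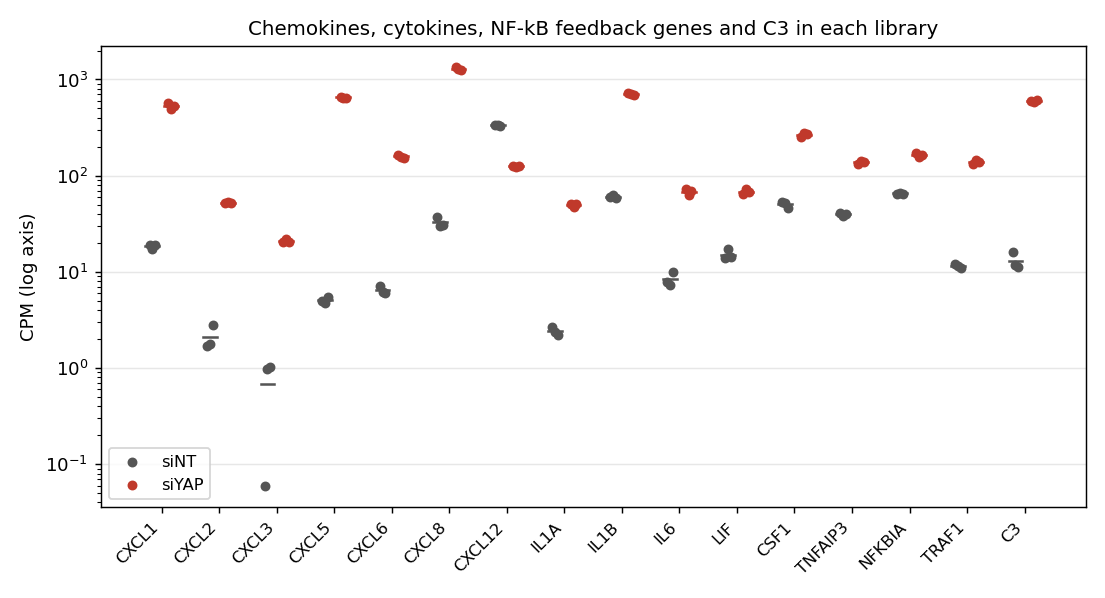
Points show CPM in each of 3 siNT (grey) and 3 siYAP (red) libraries on a log axis, with a line at each mean. Every gene shown is higher after siYAP without overlap between groups, except CXCL12, which is lower.

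Most genes of the NF-kB system, a known regulator of cytokine genes, were higher. Of 21 subunits and feedback inhibitors 18 rose and 3 fell (median 0.84). TRAF1, an adaptor induced by NF-kB, measured 12.1, 11.4 and 11.04 CPM after siNT and 133, 145 and 139.9 after siYAP. The inhibitors NFKBIA (1.32) and TNFAIP3 (1.80), which shut the pathway off, rose, as did the subunits RELA (0.44) and NFKB1 (0.30) and the noncanonical subunits RELB (1.41) and NFKB2 (1.24). SOD2, mitochondrial superoxide dismutase and a known NF-kB target, had the second largest CPM gain, with 216, 223 and 206 CPM after siNT and 1984, 1976 and 1965 after siYAP. The kinase gene IKBKB (-0.18), the deubiquitinase CYLD (-0.25) and the ubiquitin ligase BIRC2 (-0.41) fell. In the NF-kB list 7 of 18 promoters held the word GGNNTTTCC (38.9%), against 2 of 12 of the interleukin and colony-stimulating factor list (16.7%) and 5 of 33 of the replication list (15.2%).

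Complement, antigen presentation and interferon genes rose more often than they fell. Of 18 complement genes 10 rose and 4 fell. C3, the central component, went from 13.01 ± 2.54 to 595 ± 14.3 CPM, and the classical protease C1S (1.80) and the alternative-pathway protease CFB (2.09) rose, while the decay-accelerating inhibitor CD55 fell (-1.09). In the MHC class I list 16 of 18 rose, but only 2 by over 2-fold. B2M, the light chain shared by class I molecules, rose from 1431 ± 34.2 to 3062 ± 70.5 CPM, and HLA-B (0.76) and the tapasin gene TAPBP (1.02) rose with it. The class I genes are polymorphic paralogs, and their counts depend on how reads were assigned. Of 38 interferon-stimulated genes 29 rose and 4 fell, with IFI44 (2.20), IFI6 (1.92) and the antiviral BST2 (1.09) higher.

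Prostaglandin synthesis genes moved in opposite directions. PTGS2, the inducible cyclooxygenase, had 0 counts in each siNT library and 137, 121 and 117 in the siYAP libraries, at least 39.5-fold higher with 3 counts per library as the floor. The constitutive PTGS1 stood at 9.02, 10.1 and 9.96 CPM after siNT and 1.70, 2.04 and 0.828 after siYAP and fell (-2.65 ± 0.22). The terminal synthase PTGES rose (2.02), and prostacyclin synthase, PTGIS, had 29 counts in each siNT library and 0 in every siYAP library. In the list as a whole 6 of 15 rose and 3 fell.

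Targets of p53, the stress-activated transcription factor, rose in all 3 lists that divided them by function. Of arrest and feedback genes 14 of 15 rose, of apoptosis genes 14 of 16 and of repair and metabolism genes 13 of 13. CDKN1A, which encodes the cell cycle inhibitor p21, measured 52.9, 55.6 and 50.6 CPM after siNT and 999, 1112 and 1089 after siYAP. MDM2, the ligase that degrades p53, rose from 49.3 ± 4.39 to 352 ± 5.67 CPM, and BBC3, the death inducer PUMA, from 7.60 ± 0.593 to 55.7 ± 4.82 CPM. FAS, a death receptor, rose from 8.47 ± 0.53 to 60.3 ± 2.28 CPM, while the polo-like kinase PLK2 was the 1 member that fell (-0.76). In the BCL2 family 11 of 16 rose and 3 fell. Those that rose included both pro-death BAX (1.15) and BCL2L11 (0.85) and pro-survival BCL2A1 (2.66) and MCL1 (0.37).

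The CDK inhibitors differed among themselves. Of 11 CDK inhibitors and pocket proteins 6 fell and 4 rose. CDKN2A, which encodes p16 and ARF, stood at 168, 166 and 167 CPM after siNT and 116, 131 and 135 after siYAP and fell (-0.39 ± 0.05). CDKN1B, or p27, fell (-0.63), and CDKN2B, or p15, rose (0.74). The G1 cyclins CCND1 (0.44), CCND2 (1.57) and CCNE1 (0.71) rose, and cyclin A, CCNA2, fell (-1.68).

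Genes of mitosis and replication fell. All 40 spindle, cytokinesis and condensin genes fell (median -1.15), as did 33 of 37 centromere and kinetochore genes (median -0.79), with 0 higher in either list, and 34 of 38 replication genes (median -0.47). CDC20, the activator of the anaphase ligase, named after its values were seen, stood at 158, 154 and 156 CPM after siNT and 44.9, 49.6 and 43.6 after siYAP. KIF20A, a cytokinesis kinesin, fell from 279.8 ± 4.66 to 65.7 ± 3.04 CPM, and CENPK, a centromere subunit, from 97.98 ± 2.37 to 25.03 ± 0.306 CPM. Falls in the replication list were smaller: 3 of the 34 exceeded 2-fold (RRM1, TK1 and GINS2, chosen after their values were seen), against 25 of the spindle list and 14 of the kinetochore list. Thymidylate synthase, TYMS, rose (0.33), with 46.6% of its exon length shared with other genes. In the Fanconi and homologous recombination list 20 of 30 fell, FANCD2 (-1.49) and RMI2 (-2.02) among the most. The regulators were mixed, with FOXM1 (-0.94) and MYBL2 (-1.03) lower and E2F1 (0.65) and the repressive E2F7 (1.17) higher.

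The CHR element, a word bound by the DREAM and MuvB complexes in promoters of late cell cycle genes, was present at differing shares in these lists. TTTGAA, searched on both strands of the 250 bases before the start, was found in 19 of 36 spindle-list promoters (52.8%), against 13.6% of all promoters and 8.59% of those of tested genes. It was found in 6 of 29 kinetochore-list promoters (20.7%) and in 1 of 33 replication-list promoters (3.03%). The 6 genes that fell most among those with a match, chosen after their values were seen, are shown on the strand of each gene, with the word or its reverse complement in capitals. Their places are CDC20 chr1:43358889-43358948 (plus strand), CEP55 chr10:93496469-93496528 (plus), PLK1 chr16:23678829-23678888 (plus), ASPM chr1:197146750-197146809 (minus), CCNB2 chr15:59105086-59105145 (plus) and ANLN chr7:36389802-36389861 (plus).
CDC20: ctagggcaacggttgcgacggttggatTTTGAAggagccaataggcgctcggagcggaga
CEP55: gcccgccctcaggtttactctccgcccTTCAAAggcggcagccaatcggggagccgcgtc
PLK1: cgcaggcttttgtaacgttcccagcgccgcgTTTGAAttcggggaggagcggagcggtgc
ASPM: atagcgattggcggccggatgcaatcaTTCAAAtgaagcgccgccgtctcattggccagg
CCNB2: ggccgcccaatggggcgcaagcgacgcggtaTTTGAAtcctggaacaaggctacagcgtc
ANLN: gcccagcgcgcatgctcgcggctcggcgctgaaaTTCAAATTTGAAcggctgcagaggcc
CEP55 (-1.72) and ANLN (-1.45) act in abscission and the contractile ring, PLK1 (-1.68) is the mitotic kinase, ASPM (-1.66) sits at spindle poles and CCNB2 (-1.48) is a mitotic cyclin. Over all genes called lower the word occurred in 9.33% of promoters, and over all called higher in 7.91%.

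Nuclear architecture genes associated with arrested cells changed in both directions. Of 17 lamina, HMG and senescence-related genes 10 fell and 5 rose. HMGA2, an architectural factor of embryonic and tumour chromatin, measured 12.5, 13.9 and 12.9 CPM after siNT and 225, 223 and 229 after siYAP, and HMGA1 rose too (1.51). HMGB1 (-1.04), HMGB2 (-1.36) and lamin B1, LMNB1, fell, the last from 329.9 ± 9.90 to 229 ± 16.2 CPM. GLB1, the lysosomal beta-galactosidase used as a senescence stain, rose (0.58), and LMNA was not called (-0.04). Among chromatin enzymes 15 of 26 fell and 7 rose. The Polycomb subunit SUZ12 fell from 187 ± 0.906 to 74.2 ± 4.90 CPM, whereas KDM6B, which removes the Polycomb mark, rose from 31.7 ± 1.98 to 215 ± 8.64 CPM, and the demethylating TET2 (1.18) and TET3 (1.27) rose.

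**Figure D4:**
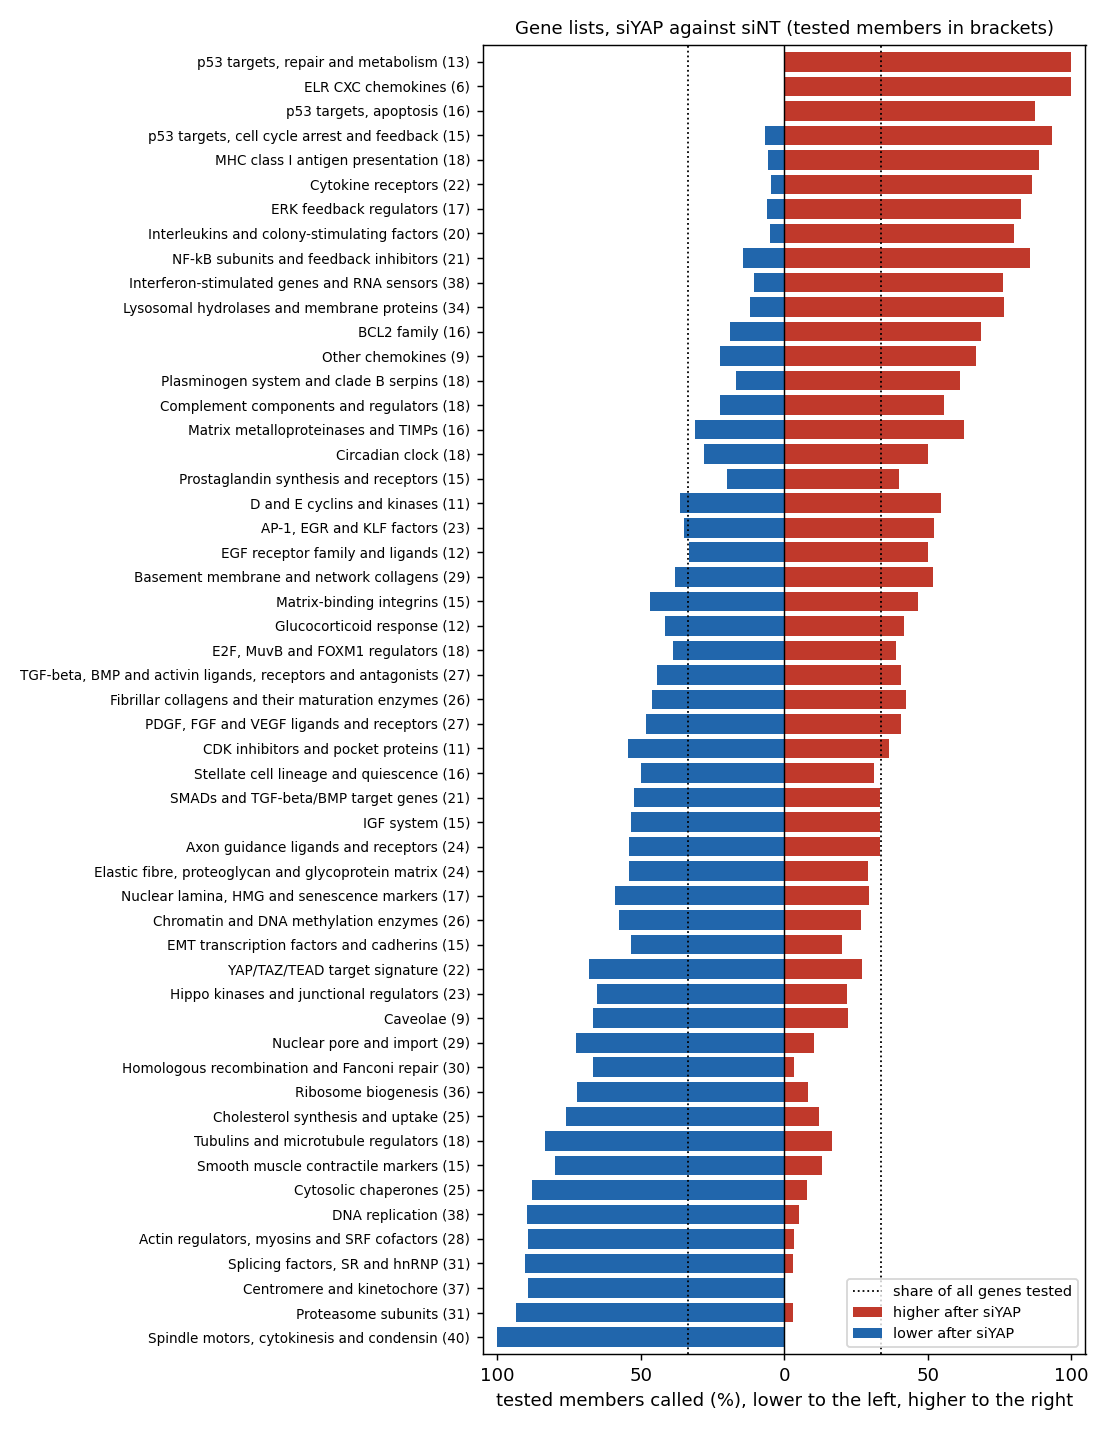
Each row is a gene list with its number of tested members in brackets; red bars give the percent of members called higher and blue bars the percent called lower, and dotted lines mark the shares over all genes tested (33.8% and 33.4%). The p53 lists and the ELR chemokines stand at the top, and spindle, kinetochore, proteasome, splicing and actin lists at the bottom.

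Large machines of the growing cell fell by small amounts in many members. Of 31 proteasome subunits 29 fell (median -0.32), and of 31 SR and hnRNP splicing factors 28 (median -0.54). So did 22 of 25 cytosolic chaperones (median -0.37) and 21 of 29 pore and import genes (median -0.35). Falls were also called in 26 of 36 ribosome biogenesis genes (median -0.26). Of 18 genes of tubulins and microtubule regulators 15 fell (median -0.62). Falls beyond 2-fold numbered between 1 and 4 per list. PSMB2 was the proteasome subunit that fell past 2-fold, from 145 ± 3.54 to 68.1 ± 2.57 CPM. The splicing factor SRSF1 fell from 387 ± 5.68 to 194 ± 8.01 CPM, nucleolin, NCL, from 1126 ± 9.31 to 547 ± 6.02 CPM, and the exportin CSE1L from 450.1 ± 6.85 to 189 ± 7.05 CPM. The chaperonin subunit CCT4 (-1.40) and the neuronal tubulin TUBB2B (-2.52) fell past 2-fold too.

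Most lysosomal genes rose and most sterol synthesis genes fell. Of 34 lysosomal genes 26 rose, 15 of them by over 2-fold (median 0.83). Cathepsin S, CTSS, stood at 11.97, 12.7 and 12.2 CPM after siNT and 308, 308 and 301 after siYAP. The protease TPP1 rose (1.62). TFE3, a factor that drives lysosomal genes, was not called, at 132 and 138 CPM. In the cholesterol list 19 of 25 fell (median -0.46), with the squalene synthase FDFT1 going from 112 ± 2.10 to 36.9 ± 1.93 CPM. The transcription factor SREBF2 (0.12) and the sterol sensor INSIG1 (0.44) rose.

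Immediate signalling readouts differed among pathways. ERK feedback genes rose in 14 of 17 cases, with the phosphatase DUSP5 from 41.9 ± 3.96 to 169.8 ± 6.01 CPM and the sprouty SPRY2 (1.59). EGR1, an early target of the same kinase, stood at 65.3, 88.8 and 75.3 CPM after siNT and 16.1, 23.2 and 20.6 after siYAP and fell (-1.94 ± 0.16). Of 23 AP-1, EGR and KLF factors 12 rose and 8 fell, with KLF4 (1.92), JUNB (1.42) and FOSL1 (1.31) highest among the abundant ones. In the clock list 9 of 18 rose and 5 fell. The largest rise was that of the repressor BHLHE40, from 41.2 ± 2.10 to 159 ± 8.74 CPM. Among glucocorticoid genes 5 rose and 5 fell, with HSD11B1 (6.84) and CEBPD (1.63) up and KLF9 (-1.06) down. Of 24 axon guidance genes 13 fell and 8 rose, with EPHA2 (-1.60) and SEMA3B (-1.54) lower and NTN1 (2.05) higher.

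Several of the largest changes belonged to none of the lists. Among rises, the long non-coding RNA PURPL, a p53-induced transcript, stood at 1.41, 1.04 and 1.08 CPM after siNT and 60.2, 44.7 and 55.1 after siYAP. The stress-responsive long non-coding RNA LUCAT1 stood at 2.89, 2.59 and 2.32 CPM after siNT and 90.6, 83.3 and 88.3 after siYAP, the organic anion transporter SLCO2B1 at 1.002, 1.61 and 0.736 CPM after siNT and 50.5, 47.5 and 47.5 after siYAP, and the neurofilament gene NEFL at 2.06, 1.15 and 0.849 CPM after siNT and 38.6, 37.7 and 43.2 after siYAP. Each was at a few CPM or less after siNT and many-fold higher in every siYAP library. Further rises were those of the alkaline ceramidase ACER2 (4.69), the phosphatase INPP5D (4.73) and dystrobrevin DTNA (4.90). Among falls, IDH1, the cytosolic NADPH-producing isocitrate dehydrogenase, stood at 114, 113 and 113 CPM after siNT and 11.9, 11.3 and 9.46 after siYAP. The oxytocin receptor OXTR fell from 227 ± 10.3 to 25.1 ± 0.715 CPM, the stem cell factor receptor KIT from 31.03 ± 1.91 to 2.12 ± 0.258 CPM, the natriuretic peptide gene NPPB from 84.3 ± 5.64 to 6.04 ± 0.719 CPM and the desmosomal plakophilin PKP2 from 46.7 ± 1.90 to 4.30 ± 0.957 CPM. The carboxypeptidase CPA4 (-3.77), the snRNA transcription subunit SNAPC1 (-3.24) and the elongation factor EEF1A2 (-3.51) fell by over 8-fold as well. MEST also fell (-3.59), but 27.4% of its exon length is shared with other genes.

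More genes were detected after siYAP alone than after siNT alone. With a minimum of 30 counts in every library of a group, 9 genes had 0 counts in all siNT libraries and were present in all siYAP libraries, and 0 genes showed the reverse. PTGIS, with 29 counts in each siNT library and 0 after siYAP, lay just under this minimum; at a minimum of 20 or 10 counts, chosen after seeing the data, 14 or 28 genes were at 0 after siNT and 2 were at 0 after siYAP. Beside PTGS2 and CCL20 they included TREM1, a receptor that amplifies inflammation, with 84, 64 and 46 counts after siYAP, the interferon-inducible DNA sensor PYHIN1 with 52, 83 and 37, and the squamous serpin SERPINB4 with 30, 44 and 40. The lower bound of the change, with 3 counts per library as the floor, ranged over the 9 genes from 12.1-fold to 39.5-fold. CCL3L3, with 42, 50 and 37 counts, is a near-identical copy of CCL3 and its count is uncertain.

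In CPM the change was spread over many genes. Together the genes called lower lost 204300 CPM and the genes called higher gained 151400 CPM. CPM is a relative unit, divided here by depth times a TMM factor. The factors were 0.971 to 0.977 for siNT and 1.02 to 1.03 for siYAP libraries. The totals over all genes therefore differ between groups, and the net loss does not measure a loss of RNA. The 10 genes with the largest CPM losses, IGFBP5, FN1, ACTB, ACTG1, SPARC, FLNA, FSTL1, COL1A1, MT-CO1 and MYH9, made up 4.16% of the siNT transcriptome and 1.71% of the siYAP one. The 10 with the largest gains, TFPI2, SOD2, COL6A1, B2M, COL6A2, CXCL8, NEAT1, ITGA5, APP and CDKN1A, made up 0.522% and 1.98%. NEAT1, the scaffold RNA of paraspeckles, varied more than most, with 423, 518 and 577 CPM after siNT and 2049.7, 1513 and 1673 after siYAP. MT-CO1, a mitochondrially encoded oxidase subunit, stood at 3694, 3970.4 and 4341 CPM after siNT and 2549, 1755 and 1975 after siYAP, with siYAP replicate 1 the closest to the controls.

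The calls of long non-coding RNAs leaned upward. Of 2004 tested, 633 rose (31.6%) and 228 fell (11.4%), with a median log2 fold change of 0.40. The share that rose was near that of all genes tested (33.8%), and the share that fell was lower (33.4% of all genes). Of about 13410 protein-coding genes 4575 rose (34.1%) and 4950 fell (36.9%), with a median of -0.02. Beyond 2-fold the long non-coding calls were 469 higher and 135 lower. The filter on low counts keeps genes counted in a single group, and more genes were detected after siYAP than after siNT. Reads outside annotated genes were also more frequent in the siYAP libraries, highest in replicate 1. The part of either in this lean was not tested. Without siYAP replicate 1, an alternative chosen after seeing the data, the counts were 531 higher and 215 lower.

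The study's other knockdown, of the paralog TAZ, gives a second set of values for the same genes. How far WWTR1, which encodes TAZ, fell in the siTAZ libraries is not described here. The siTAZ and siYAP libraries share the siNT controls, so their values are set side by side and only the direct contrast of siYAP with siTAZ is a test of difference. In that contrast 10298 of 15560 genes (66.2%) were called, 5165 higher and 5133 lower after siYAP. CCN2 measured 350.0, 383 and 405 CPM after siTAZ, a log2 difference of -0.02 ± 0.04 from siNT, and siYAP lay -2.44 ± 0.05 from siTAZ (adjusted p = 1e-31, edgeR). TAGLN measured 737, 797 and 812 CPM after siTAZ, at or above the controls, and siYAP lay -3.28 ± 0.04 from it. CXCL8 measured 8.93, 8.90 and 6.69 CPM after siTAZ, below the controls, and siYAP lay 7.30 ± 0.10 above. CSF2 (-2.28 ± 0.32 after siTAZ) and SERPINB7 (-2.15 ± 0.18) fell after siTAZ too, while both rose after siYAP.

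By list, all 6 ELR chemokines, 17 of 21 NF-kB genes and 13 of 15 p53 arrest genes were higher after siYAP than after siTAZ, and 40 of 40 spindle genes and 12 of 15 contractile genes were lower. Against siNT, 5391 of 15560 genes (34.6%) were called after siTAZ, 2559 higher (16.4%) and 2832 lower (18.2%), and several lists moved there too. After siTAZ 11 of 15 p53 arrest genes, 14 of 18 MHC class I genes and 23 of 38 interferon-stimulated genes rose, and 25 of 40 spindle genes and 21 of 25 cytosolic chaperones fell. In the direct contrast 8 of the 18 MHC class I genes and 21 of the 38 interferon-stimulated genes were higher after siYAP, and 14 of the 25 chaperones were lower. CDKN1A rose after siTAZ as well (1.57 ± 0.05), to 155, 170.2 and 147 CPM, with siYAP 2.76 ± 0.05 above it. SPATA18, a mitochondrial quality control gene induced by p53, and CLCA2 showed the same order, with 1.99 ± 0.18 and 2.76 ± 0.18 after siTAZ against 4.82 ± 0.14 and 6.96 ± 0.12 after siYAP. COL1A1 rose after siTAZ (0.59 ± 0.02) and fell after siYAP, with a direct difference of -1.61 ± 0.03. SEMA3E, a repulsive guidance ligand, fell after both, with -2.65 ± 0.16 after siTAZ and -4.77 ± 0.20 after siYAP. IDH1 went from its control level to 136, 133 and 136 CPM after siTAZ, and siYAP lay -3.63 ± 0.07 from it.

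**Figure D5:**
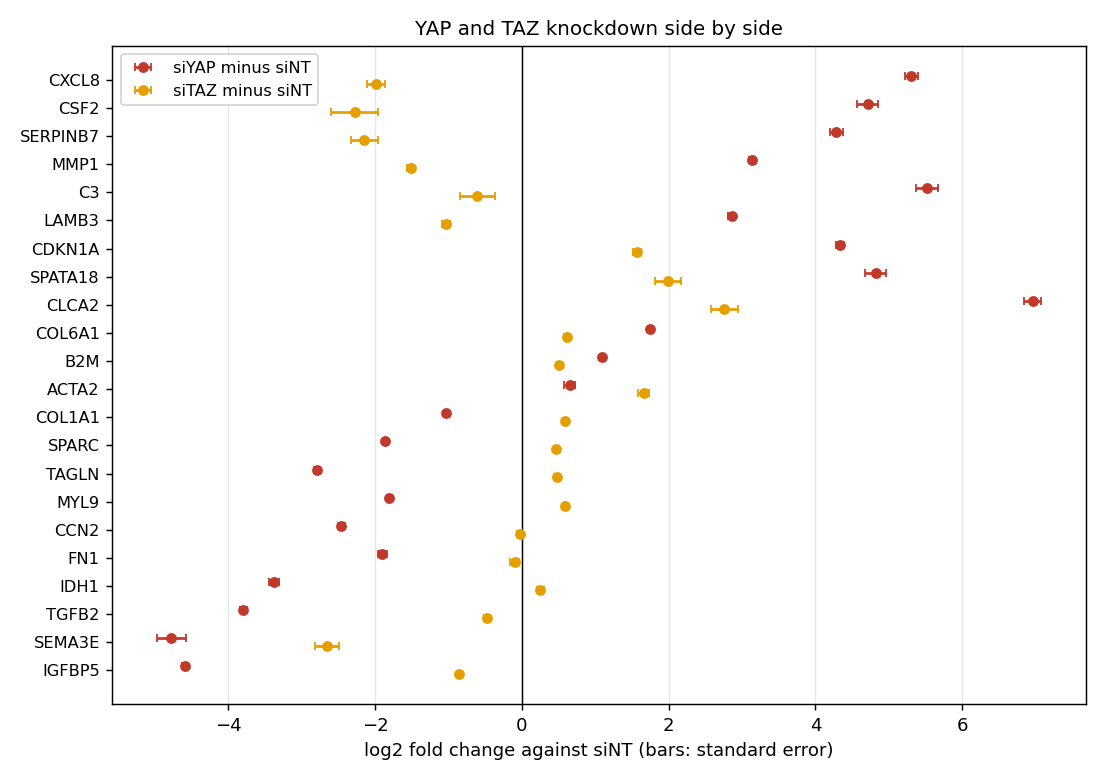
Points give the log2 fold change against siNT after siYAP (red) and siTAZ (orange) for 22 genes named in the text, with the standard error as bars. Both share the same 3 control libraries; CXCL8, CSF2, SERPINB7 and MMP1 lie on opposite sides of 0, CDKN1A, SPATA18 and CLCA2 are higher in both, and COL1A1 and TAGLN are below 0 after siYAP and above 0 after siTAZ.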

How the data were processed

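Each library has 1 deposited table of raw counts, with Ensembl gene IDs and no normalization. Per the submitters' processing notes the authors' tools were STAR 2.5.0c, HTSeq, Picard, SAMtools and Trim Galore, with no roles or settings given. The notes name mm10, a mouse build, whereas the gene IDs are human, so the build, annotation and strand setting behind the counts are not given in the sources used here, and antisense or overlapping genes cannot be told apart.

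Genes were kept by filterByExpr in edgeR 4.0.16 (minimum count 10, minimum total 15; R 4.3.3), which left 15560 genes. Counts were scaled by TMM, and a robust quasi-likelihood model was fitted over all 9 libraries, with siYAP against siNT and siYAP against siTAZ as contrasts and Benjamini-Hochberg adjustment over all genes tested. The alternatives were scaling by upper quartiles or RLE, leaving out the filter, CPM of at least 1 in 3 libraries, a replicate block, the compared groups alone, DESeq2 1.42.0, limma-voom 3.58.1, an adjusted p under 0.01 and each library left out; the counts of long non-coding genes under them were added after seeing the data. Reads in no gene or in several genes stayed out of all totals, at 4.73 to 7.49% and 6.33 to 6.91% of counted reads in the 6 libraries.

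Named genes are YAP1, WWTR1 and TEAD1 to TEAD4; the 20 largest rises and falls among called genes whose log2 CPM averaged 3 or more and whose groups did not overlap; the 10 largest CPM gains and losses; for each list the 6 called members of smallest p per direction, all members of lists of up to 24 genes, and the 2 most abundant members not called; and genes at 0 counts in a group. Not all genes the rule allows are described. The members, the 58 lists and the rule were chosen with earlier results of these data known. Names came from a gene name table and GENCODE 29, which also gave exon overlaps, and promoter sequences from RefSeq (GRCh38.p14), which matched 11717 of the tested genes.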

Additional observations from a re-analysis of the deposited data

Results flagged for a closer look

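Reads that fell in no annotated gene, which enter none of the comparisons, took a larger share of the siYAP libraries, with 7.49%, 6.01% and 6.53% in replicates 1, 2 and 3 (mean 6.68%), than of the siNT libraries, with 4.73%, 4.92% and 5.13%. The highest share belonged to siYAP replicate 1, in which the most genes were detected (21836). The siTAZ libraries stood between 5.53% and 5.63%. What these reads are was not analysed here.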

How the results depend on the processing

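Over the alternatives the genes called after siYAP numbered between 9245 and 10633, and between 9995 and 10089 with 1 library left out (higher 4952 to 5073, lower 4980 to 5107; siYAP against siTAZ 9832 to 10028). Of 10434 genes called with the replicate number as a block, 5240 were higher and 5194 lower. The labels do not say whether the numbers pair the libraries. Deviations of same-numbered libraries correlated at -0.03 to 0.01, which shows no sign of pairing but cannot exclude it. Upper-quartile scaling gave 5570 higher and 4926 lower. The near balance turned to more lower than higher without the filter (5248 and 5385), over the 2 groups alone (5242 and 5280), at an adjusted p under 0.01 (4591 and 4654), without any 1 siNT library (4952 to 4989 and 5033 to 5075) and without siYAP replicate 1 (4965 and 5107). Of 4199 recomputed values of the named genes, 4194 stayed on their side of the threshold, 1 lost a call (DOCK5) and 4 gained one, with 0 reversed. Of 1740 recomputed list counts, 9 moved by over 1.5 times, and each of these was a count of at most 3. Genes with few counts limit the depth of any fold: 3 counts correspond to 0.157 to 0.177 CPM in the 6 libraries.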

Other observations

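Surface and membrane genes outside the comparisons above also moved. Of 9 tested genes of caveolae, the tension-buffering pits of the plasma membrane, 6 fell and 2 rose. CAVIN1, which coats caveolae, went from 1767 ± 26.98 to 964 ± 31.5 CPM (SD, n = 3) and EHD2, which tethers them, from 581 ± 8.93 to 348 ± 14.5 CPM. The scaffold CAV1 fell less (-0.19 ± 0.04, log2 ± SE). Of 15 tested genes of epithelial-mesenchymal transition factors and cadherins 8 fell and 3 rose. The cadherins CDH4 (-3.42), CDH2 (-0.64) and CDH11 (-0.54) fell. Among the transcription factors, SNAI2, TWIST1 and ZEB1 were not called, at 32.8 and 32.7 CPM, 9.99 and 10.3 CPM and 40.9 and 44.5 CPM after siNT and siYAP, and ZEB2 rose (0.58).

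Of 5 tested cholangiocyte and epithelial markers 2 rose, SOX9 (0.70) among them, 2 fell, KRT8 and KRT18, and KRT7 was not called, at 1.80 and 1.42 CPM. KRT8 stood at 296, 288 and 294 CPM after siNT and 51.1, 57.2 and 57.6 after siYAP, and KRT18 fell from 331 ± 1.34 to 97.9 ± 6.26 CPM. EPCAM and CDH1 were under 1 CPM in every library of both groups. Of 16 tested genes tied to stellate lineage or quiescence 5 rose and 8 fell. Cytoglobin, CYGB, known from quiescent stellate cells, went from 0.114 ± 0.113 to 4.34 ± 0.883 CPM (5.15, and 6.04 without siNT replicate 3), and the pericyte gene RGS5 and reelin, RELN, rose (2.23 and 2.37), while PPARG, which maintains quiescence, fell from 1.13 ± 0.0429 to 0.307 ± 0.0972 CPM. The summed level of the 20 genes on this list was 566 to 571 CPM after siNT and 559 to 562 after siYAP.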
